A study of Mus musculus with 12 samples.

Results

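Binding of the neuronal transcription factor NeuroD2 and of a MyoD protein carrying the NeuroD2 DNA-binding domain was compared at 452 genomic regions that both proteins occupied and that neither of 2 mutants of the carrier protein occupied. They are called lost regions below, where lost means only that the deposited lists of both mutants hold no overlapping interval. The regions were chosen by presence and absence in the deposited lists of binding intervals. All intervals of 5 lists were pooled, those that overlapped by at least 1 base were merged, and a merged region was retained if it held an interval of NeuroD2 and one of the chimera and none of either mutant. This gave 452 of 60136 merged regions, of which 252 also held a MyoD interval and 200 did not. Absence from the mutant lists and presence in the NeuroD2 and chimera lists are therefore properties of the choice and not results. The MyoD list took no part in it beyond the merging.

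The experiment was chromatin immunoprecipitation followed by sequencing in P19 cells, a mouse embryonal carcinoma line. The groups were cells transduced with MD(ND2bHLH)WC, MD(ND2bHLH)WCS, MD(ND2bHLH) chimera, NeuroD2 or MyoD, and untransduced cells as negative controls, with 2 libraries each. The chimera MD(ND2bHLH) is MyoD with the bHLH domain of NeuroD2 in place of its own. WC and WCS are mutants of it, and the labels do not say which residues changed. Infection was done with polybrene at 8 µg/ml, and a neuronal medium was used from 48 h on. MyoD antibodies 6196 and 6975 served for MyoD, the chimera and both mutants, and NeuroD2 antibodies 1165 and 1240 for NeuroD2, so protein and antibody cannot be told apart between NeuroD2 and the rest. Each transduced group has 1 list for its 2 libraries, so no spread between replicates exists and no test between groups could be made. The untransduced libraries (antibodies 1240 and 6975) were not analysed here, and no background level of theirs can be set beside the shares.

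MyoD is the bHLH factor that can convert other cell types to skeletal muscle, and NeuroD2 belongs to the bHLH factors of neuronal differentiation. Both bind DNA as dimers with an E protein at the E-box, a short element with a variable centre. The basic part of the domain contacts the bases of the E-box, and the helices form the dimer. MyoD also interacts with the homeodomain proteins Pbx and Meis on DNA. The genes near the regions are not named and their sequences are not shown, because the lists use the mm9 build and no genome or annotation of that build was used here.

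The lists held 27045 intervals for WC, 22462 for WCS, 14375 for the chimera, 31458 for NeuroD2 and 24935 for MyoD. Both mutant lists are thus longer than that of the chimera they derive from. Each interval carries a value from the authors on a scale that no header names, with a floor near 5 in every list. It was used only to describe and rank regions within a list. The rank is given as a percentile: the share of the intervals of that list with a lower value, ties taken at their middle. Read depth is unknown. The chimera and MyoD lists held 0 intervals on chromosome X, against 570 for NeuroD2, 403 for WC and 362 for WCS, so no lost region could lie there.

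Few of the regions that NeuroD2 and the chimera shared were absent from both mutant lists. Of the 7283 regions of NeuroD2 and the chimera, 6.21% were in neither mutant list, whereas this applied to 35.5% of all 14275 chimera regions and to 37% of all 31008 NeuroD2 regions. Both mutants held 6114 of the 7283 regions, or 83.9%, WC alone held 535 (7.35%) and WCS alone 182 (2.50%). These 717 regions of exactly 1 mutant outnumbered the 452 lost regions. With the NeuroD2, chimera and MyoD lists cut to their upper 50% and the mutant lists whole, 46 of 3227 regions were lost, or 1.43%. With every list cut to its upper 50% it was 184 of 3226, or 5.70%, and with every list cut to the length of the shortest 297 of 4846, or 6.13%. Counted singly, WC lacked 634 regions and WCS 987, and 452 of each set are the lost regions.

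The share lost was close with and without MyoD. The mutants lacked 252 of 4186 regions with MyoD, or 6.02% (exact 95% interval 5.32 to 6.78%), and 200 of 3097 regions without MyoD, or 6.46% (5.62 to 7.38%). The difference, with minus without MyoD, was −0.438 percentage points, with a Newcombe 95% interval of −1.58 to 0.676 points. These intervals cover counting error only, since neighbouring regions and single lists are not replicates. The sign turned in 2 of 9 alternative settings. The other fates were as close. WC alone held 7.33% of the regions with MyoD and 7.36% of those without, and WCS alone 2.68% and 2.26%.

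**Figure D1:**
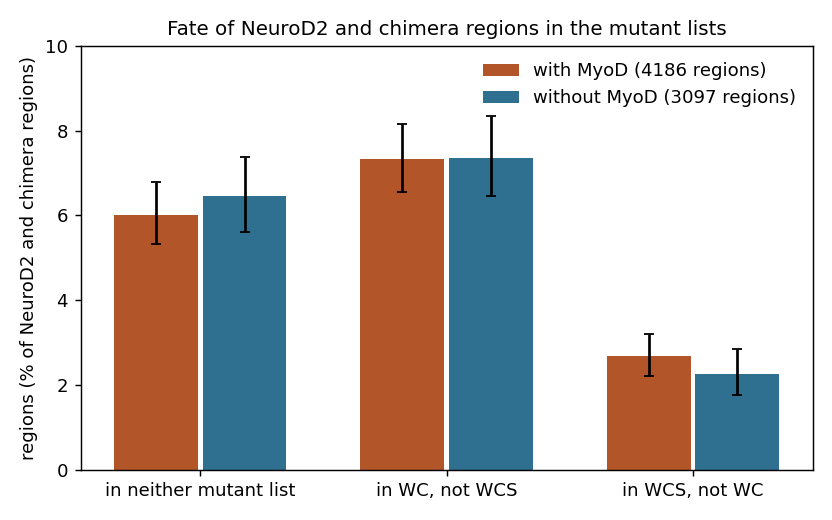
Percentage of the NeuroD2 and chimera regions that lay in neither mutant list, in the WC list alone or in the WCS list alone, for the 4186 regions with a MyoD interval (left bar of each pair) and the 3097 without one (right bar). Error bars are exact 95% binomial intervals; in each pair they overlap, as at 6.02% and 6.46% in neither list.

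Seen from the lost regions, 55.8% held MyoD (51.0 to 60.4%), against 57.5% of the regions kept by both mutants, a difference of −1.74 points (−6.51 to 2.94). MyoD was present at 57.5% of all NeuroD2 and chimera regions and at 41.1% of all 60136 merged regions. The share among lost regions is thus near the level of the class from which they were taken.

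The shares lay far apart with and without NeuroD2. The mutants lacked 6.21% of the chimera regions where NeuroD2 had an interval and 4615 of 6992, or 66.0%, where it had none. With and without MyoD the share was again close: among chimera regions without NeuroD2, the mutants lacked 65.9% of the 4009 with MyoD (64.4 to 67.4%) and 66.1% of the 2983 without it (64.4 to 67.8%). The reverse view gave another picture. Among NeuroD2 regions without the chimera, the mutants lacked 27.4% of the 2169 with MyoD (25.5 to 29.3%) and 48.3% of the 21556 without it (47.6 to 48.97%). The NeuroD2, WC and WCS lists hold intervals on chromosome X and the other 2 lists do not. The shortest interval was 53 bp for NeuroD2 and 54 bp for WC and WCS, against 125 bp for MyoD and 200 bp for the chimera. No label names a batch, and protein cannot be told apart from a batch that those 3 lists might share.

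The lost regions ranked low in the NeuroD2 list. Their median NeuroD2 percentile was 27.7 (order-statistic 95% interval 23.7 to 32.0), with 27.7 both with and without MyoD, whereas the kept regions had a median of 76.4 (75.6 to 77.4). In the authors' units the median NeuroD2 value was 7.15 in lost and 21.3 in kept regions. A percentile under 50 in the NeuroD2 list was found in 344 of the 452 lost regions, or 76.1%, and in 21.8% of the kept ones. The regions of exactly 1 mutant lay between them, at 35.9 for those of WC alone and 37.2 for those of WCS alone. These NeuroD2 ranks come from a list that chose the regions, and they are given as a description.

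In the chimera list the lost regions ranked lower too, but by less. Their median chimera percentile was 40.9 (37.9 to 44.8), against 62.7 (61.5 to 63.6) in kept regions. It was 39.2 (33.7 to 43.5) in the regions of WCS alone and 51.4 (46.1 to 57.0) in those of WC alone. A low chimera rank was thus not particular to the lost regions. Regions with MyoD stood higher than those without, among lost and among kept regions. Lost regions had a median of 45.6 with MyoD (41.7 to 51.4) and 30.8 without (24.1 to 39.5), and kept regions 74.1 with MyoD and 47.8 without. The chimera percentile exceeded the NeuroD2 percentile in 60.4% of lost regions and in 36.6% of kept regions.

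In the MyoD list, which entered the choice only through the merging, lost regions ranked somewhat lower than kept ones. The 252 lost regions with MyoD had a median MyoD percentile of 69.6 (64.7 to 72.8), against 76.0 (74.6 to 77.5) in the 3515 kept regions. The authors' MyoD values ranged from 5.09 to infinite in lost regions, with a median of 17.2, against a median of 20.9 in kept regions. In 203 of the 252 lost regions, or 80.6%, the MyoD percentile was above the NeuroD2 percentile, compared with 50.9% of the kept regions with MyoD. The NeuroD2 ranks in this comparison come from a list that chose the regions, so it is a description only. By median rank, the lost regions with MyoD were low in the NeuroD2 list, near the middle of the chimera list and high in the MyoD list. The regions of exactly 1 mutant with MyoD had median percentiles of 32.8, 58.2 and 71.3 in these lists. Low NeuroD2 and high MyoD ranks were thus not particular to the lost regions.

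**Figure D2:**
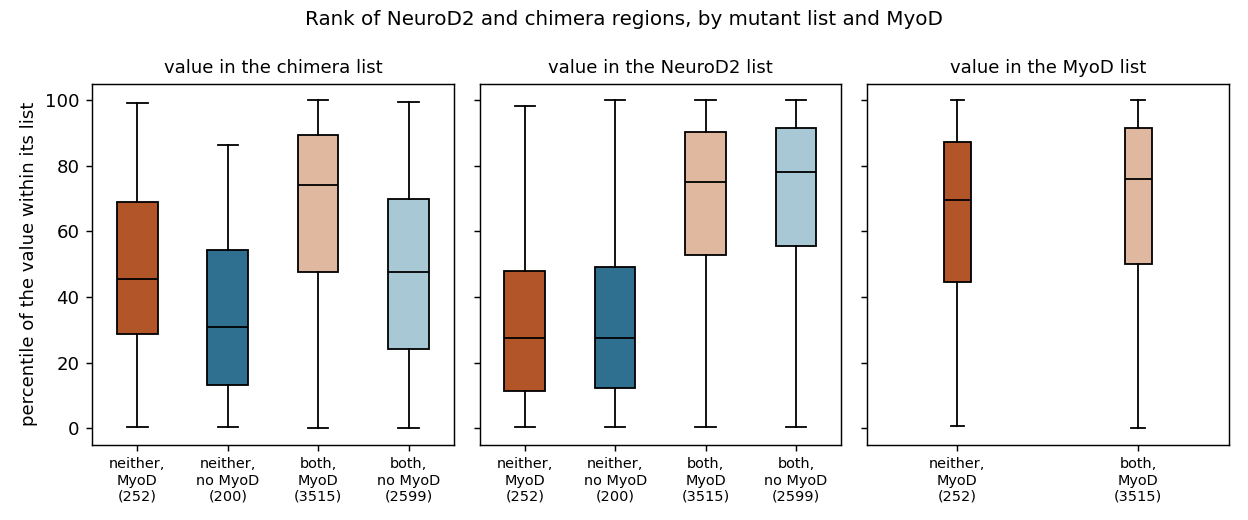
Percentile of the region's highest value within the chimera, NeuroD2 and MyoD lists for regions in neither mutant list and in both, with and without MyoD, with the number of regions under each box. Boxes span the quartiles, the line is the median and the whiskers reach the lowest and highest region. In the NeuroD2 list the medians of the lost regions are 27.7 and those of the kept regions 75.04 with MyoD and 77.95 without; in the MyoD list they are 69.6 and 76.0.

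The share of regions lost was lower in each higher bin of the NeuroD2 ranking. Since the NeuroD2 list chose the regions, these bins are given as a description only. Of the NeuroD2 and chimera regions in the lowest 20% of the NeuroD2 list, the mutants lacked 182 of 697, or 26.1% (22.9 to 29.5%). Over the next bins the shares were 13.1%, 7.01% and 2.72%, and in the top 20% the mutants lacked 23 of 2797 regions, or 0.822% (0.522 to 1.23%). With and without MyoD the course was alike. Regions with MyoD had 23.8% lost in the lowest and 0.646% in the highest bin, and regions without MyoD 29.6% and 1.04%. In each of the 5 bins the share was lower with MyoD, and in each the 2 intervals overlapped.

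Along the chimera ranking the course was shallower and along the MyoD ranking nearly flat. The chimera list also chose the regions, so its bins are a description only. The lost share was 10.3% in the lowest and 1.54% in the highest 20% of the chimera list. Within bins of the chimera list the order by MyoD was mostly the opposite of that within NeuroD2 bins. From the lowest bin up, the share lost was 10.1% with and 10.4% without MyoD, 12.2% and 6.66%, 9.14% and 6.90%, 5.57% and 4.99%, and 1.78% and 0.529%. It was higher with MyoD in the upper 4 bins, and in the second the intervals did not overlap (9.58 to 15.3% with and 4.88 to 8.83% without MyoD). From the lowest to the highest 20% of the MyoD list it was 7.26%, 6.31%, 6.67%, 7.47% and 4.72%, and the intervals of the first 4 bins overlapped, while that of the fifth (3.79 to 5.80%) lay just below that of the fourth (5.89 to 9.31%). Taking both lists that define the class together, 19.9% of the 1067 regions in the lower 50% of both the NeuroD2 and the chimera list were lost. With only the chimera rank in the upper 50% the share was 12.1%, with only the NeuroD2 rank there 3.28%, and with both there 1.42% of 3235 regions.

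**Figure D3:**
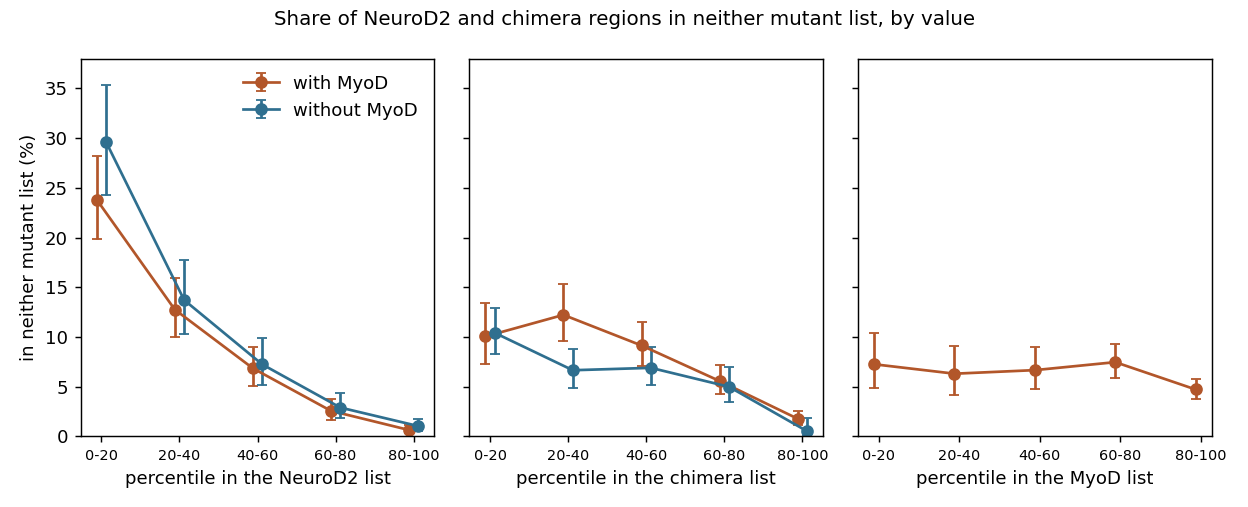
Percentage of the NeuroD2 and chimera regions found in neither mutant list, in 5 bins of the percentile in the NeuroD2, chimera and MyoD lists, for regions with MyoD and without it. Points carry exact 95% binomial intervals. In the NeuroD2 panel the share is 23.8% with MyoD and 29.6% without in the lowest bin and 0.646% and 1.04% in the highest, in the second chimera bin it is 12.2% with MyoD and 6.66% without, and over the MyoD bins it lies between 4.72% and 7.47%.

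Within the same 20% bin of the NeuroD2 list, a smaller share of regions was lost where the chimera was present. Ranks inside a bin can still differ with and without the chimera. Both lists chose the regions, so this is a description only. In the lowest 20% of the NeuroD2 list the share was 26.1% with the chimera and 68.2% without it, and in the highest 20% it was 0.822% with the chimera and 14.0% without it. In the lowest 20% of the chimera list the share was 10.3% with NeuroD2 and 74.1% without it, and in the highest 20% it was 1.54% with NeuroD2 and 46.8% without it.

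Among the lost regions with MyoD, the chimera's rank followed that of MyoD and not that of NeuroD2. Both the chimera and the NeuroD2 list chose the regions, so this is given as a description. Spearman's rho over these 252 regions was 0.42 between the chimera and MyoD, −0.09 between the chimera and NeuroD2 and 0.07 between NeuroD2 and MyoD. In the 3515 kept regions with MyoD the 3 coefficients were 0.41, 0.29 and 0.07. Without MyoD, the coefficient between the chimera and NeuroD2 was 0.18 in the 200 lost regions and 0.19 in the 2599 kept ones. The coefficients describe regions of single lists, and the chimera and MyoD libraries were made with the same antibodies.

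**Figure D4:**
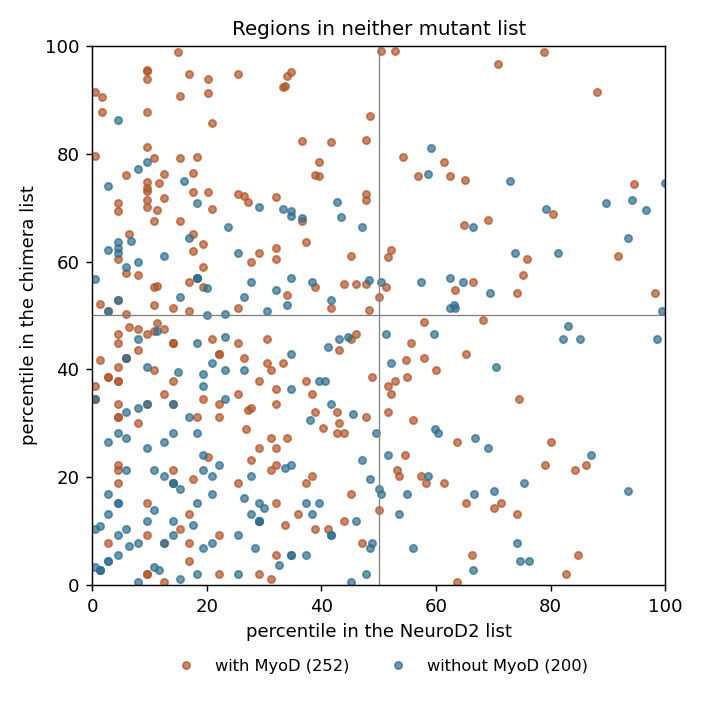
Each of the 452 lost regions by its percentile in the NeuroD2 list (horizontal) and the chimera list (vertical), coloured by the presence of MyoD, with grey lines at the 50th percentile. Of the points, 344 lie left of the vertical line, and 212 lie under 50 on both axes.

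The single regions show how far the ranks could part. The lost region with the highest chimera value lay on chromosome 10 from 39378834 to 39379824 (mm9, 1-based, as for all positions), with 93.7 in the chimera list, 10.6 in the NeuroD2 list and 59.6 in the MyoD list. It stood at percentile 99.1 for the chimera and at 50.5 for NeuroD2, and the nearest mutant interval was 13215 bases away. A region on chromosome 6 from 121001409 to 121001857 was close to it in the chimera and NeuroD2 lists, with 92.9 and 11.1, and had a higher MyoD value of 84.3. Another lost region lay 1579 bases from it. The third by chimera value, on chromosome 5 from 34529993 to 34530988, reached 86.7 for the chimera with only 5.91 for NeuroD2 and 22.7 for MyoD. All 3 are thus regions of high chimera rank that WC and WCS lack, with a NeuroD2 value of middle or low rank.

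Ranked by MyoD, the lost regions included some of the strongest sites of that list. On chromosome 17 from 25792759 to 25794029 the MyoD value was infinite, the chimera value 40.7 and the NeuroD2 value 6.46. The nearest mutant interval lay 2207 bases away and a region kept by both mutants 2154 bases away. On chromosome 16 from 8470554 to 8471222 the values were 46.2 for the chimera, 5.56 for NeuroD2 and 265.9 for MyoD. Here the NeuroD2 percentile was 9.55 and the MyoD percentile 99.9. The third region, on chromosome 6 from 89295430 to 89296463, differed in that all 3 lists ranked it high, with 33.8 for the chimera, 36.3 for NeuroD2 and 186.1 for MyoD.

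Few lost regions with MyoD were strong NeuroD2 sites. The highest, on chromosome 6 from 28698230 to 28698806, had 10.2 for the chimera, 97.1 for NeuroD2 and 20.6 for MyoD, and no mutant interval within 37951 bases. The next lay near the start of the chromosome 18 sequence, from 3008445 to 3011309, with 16.0 for the chimera, 57.6 for NeuroD2 and 11.2 for MyoD, and a WCS interval 392 bases away. The third, on chromosome 1 from 181114732 to 181115467, had 11.6, 45.6 and 14.4 in the chimera, NeuroD2 and MyoD lists.

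Without MyoD the chimera values reached less far. The highest among these 200 lost regions was 24.9, on chromosome 6 from 99753972 to 99755525, where the NeuroD2 value was 5.23. It was followed by 19.9 on chromosome 7 from 34919282 to 34919629, with 12.9 for NeuroD2. A region on chromosome 3 from 40430139 to 40430555 had 18.1 for the chimera and 5.56 for NeuroD2. The chimera percentiles of these 3 regions were 86.2, 81.1 and 78.5, whereas the leading regions with MyoD stood at 98.8 or above.

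The NeuroD2 values of the lost regions without MyoD reached the top of the list, and the highest with MyoD stood at percentile 98.2. The region on chromosome 9 from 3002795 to 3003189 had an infinite NeuroD2 value and a chimera value of 16.0, and intervals of both mutants lay 118 bases away. It lay near the start of the chromosome 9 sequence. The region on chromosome 3 from 8245170 to 8245572 had 8.84 for the chimera and 108.1 for NeuroD2, with a WC interval 200 and a WCS interval 208 bases away. In these 2 regions the absence of the mutants rests on a short gap between intervals. The region on chromosome 11 from 53953389 to 53954345, in contrast, had 9.65 for the chimera and 142.4 for NeuroD2, and its nearest mutant interval was 17132 bases away. Whether reads can be placed uniquely in any of these regions was not tested.

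Most lost regions were simple in structure. A single chimera interval was present in 449 of the 452 and a single NeuroD2 interval in 443, and in 449 the chimera and NeuroD2 intervals overlapped each other directly. In the other 3 regions, all with MyoD, they were joined by the MyoD interval. The overlap of chimera and NeuroD2 intervals had a median of 270.5 bp in lost and 369 bp in kept regions, in step with narrower NeuroD2 intervals, at a median of 286.5 bp against 424 bp. Chimera intervals were similar in width, at 454 bp against 469 bp.

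The centres of the intervals also lay somewhat farther apart in lost than in kept regions. The distance between the chimera and NeuroD2 centres had a median of 58 bp (50 to 68), against 41.5 bp (40 to 43) in kept regions. It was 65.5 bp (50 to 77.5) in the regions of WCS alone and 41 bp (35.5 to 45.5) in those of WC alone. The wider spacing was thus not particular to the lost regions. Where MyoD was present, the chimera and MyoD centres were closer to each other, at 39.75 bp (27.5 to 52.5) in lost regions and 33.5 bp (31.5 to 35.5) in kept ones. The chimera centre lay nearer to the MyoD centre than to the NeuroD2 centre in 167 of 252 lost regions, or 66.3% (60.1 to 72.1%), compared with 57.4% of kept regions (55.7 to 59.0%). A centre is that of an interval, and summit positions are not given in the lists.

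Near misses of the overlap rule made up a small part of the lost regions. A WC or WCS interval lay within 100 bases of 3 of the 452 regions, or 0.664%, within 500 bases of 46 (10.2%) and within 1000 bases of 69 (15.3%, 12.1 to 18.9%). Within 1000 bases the count was 35 of 252 with MyoD and 34 of 200 without it. By comparison, 8.80% of the 4615 lost chimera regions without NeuroD2 and 10.6% of the 11006 lost NeuroD2 regions without the chimera had a mutant interval that close. The share within 1000 bases depends on how intervals are joined, at 4.17% with gaps of up to 500 bases closed and 24.2% with intervals cut to their central 100 bases. The median distance to the nearest interval of either mutant was 11936.5 bases (9818 to 14190), with 13280 bases to WC and 16242.5 to WCS.

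The 3 regions just inside the rule lay on chromosome 8 from 19705188 to 19705629, 15 bases from a WC interval, on chromosome 2 from 92755074 to 92756129, with a gap of 64 bases, and on chromosome 10 from 36860760 to 36861224, with a gap of 73 bases. Just outside it, the region on chromosome 7 from 53596700 to 53597236 was held by WCS with an overlap of 140 bases, followed by overlaps of 144 and 150 bases. In each of the 6831 regions with a mutant, the longest overlap of a mutant interval with an interval of another protein was at least 140 bases. By median, the nearby mutant intervals were not weak. The 74 WC and 64 WCS intervals within 1000 bases of a lost region had median values of 14.5 and 15.9, against 10.5 and 10.0 in their whole lists. Their values ranged from 5.30 for WC and 5.11 for WCS, near the floor, to infinite in both.

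**Figure D5:**
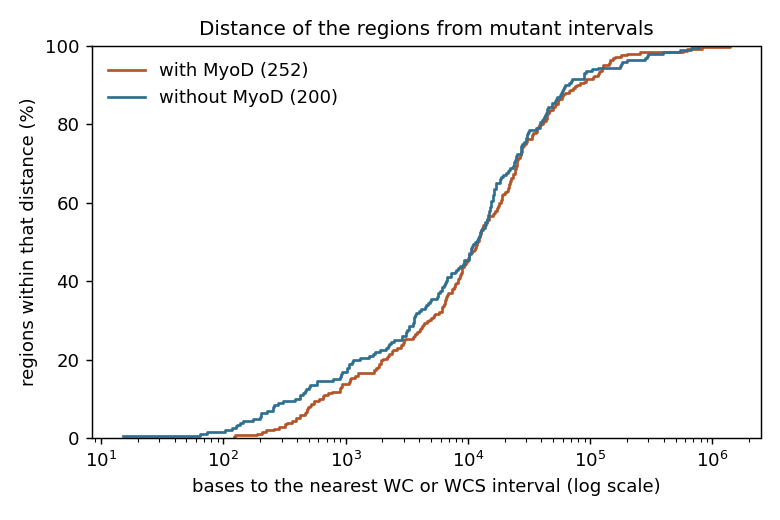
Cumulative percentage of lost regions by the number of bases to the nearest WC or WCS interval, on a logarithmic axis, for the 252 regions with MyoD and the 200 without. At 1000 bases the curves stand at 13.9% with MyoD and 17.0% without, and at 10000 bases at 45.6% and 45.5%.

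The most distant lost regions had no mutant interval anywhere near. The farthest, on chromosome 4 from 28741990 to 28742975, was 1395980 bases from one, with 14.1 for the chimera, 5.56 for NeuroD2 and 15.1 for MyoD. It was followed by chromosome 8 from 38979482 to 38979848, at 814450 bases, with 9.77 for the chimera, 5.07 for NeuroD2 and 34.7 for MyoD. The third, on chromosome 1 from 124253601 to 124253970, held no MyoD, with 14.0 for the chimera and 23.8 for NeuroD2, and lay 771900 bases away. Within 100000 bases a mutant interval was found for 418 of the 452 regions.

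The lost regions were spread over all 19 autosomes of the class. Chromosome 13 had the highest share of its NeuroD2 and chimera regions lost, 21 of 240 or 8.75% (5.50 to 13.1%), and chromosome 8 the lowest, 18 of 421 or 4.28% (2.55 to 6.67%). These extremes were picked from 19 chromosomes and their intervals overlap. The largest number, 45 regions, lay on chromosome 4. Another lost region lay within 100000 bases of 67 of them, and a kept region, of which there are far more, within that distance of 281. Of the 430 windows of 100 kb that held any, 410 held 1, 18 held 2 and 2 held 3.

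Both windows with 3 lost regions were rich in NeuroD2 intervals. The window from 90100001 on chromosome 1 held 1 WC, 0 WCS, 5 chimera, 62 NeuroD2 and 2 MyoD intervals, and its 3 NeuroD2 and chimera regions were all lost. The window from 25400001 on chromosome 3 held 1 WC, 0 WCS, 3 chimera, 32 NeuroD2 and 2 MyoD intervals, and again all 3 were lost. None of these 6 regions held MyoD. Such windows did not carry the class as a whole. Windows with 10 or more intervals of any list held 12.2% of the lost and 12.4% of the kept regions. The 3 widest lost regions measured 5065 bp on chromosome 5 from 14871065 to 14876129, 3835 bp on chromosome 16 from 3238003 to 3241837 and 2958 bp on chromosome 3 from 25433057 to 25436014, the last of them inside the second of these windows. The median width was 516 bp in lost and 603 bp in kept regions.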

How the data were processed

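Chromatin immunoprecipitation libraries of P19 cells were analysed as 5 deposited lists of intervals. CASAVA 1.8.2, BWA 0.7.5 and build mm9 are named, per the submitters' processing notes. How peaks were called, filtered and pooled is not given in the sources used here. The deposited score of each interval has no named scale and was used only to describe and rank intervals within a list; 34 NeuroD2, 11 MyoD, 8 WC and 6 WCS intervals have an infinite score. A region took the highest score of each list. Shares have exact Clopper-Pearson 95% intervals, differences of shares Newcombe intervals and medians order-statistic intervals, all for counting error only; depth is unknown. The merging and distance code was tested on simulated data. Named regions are the top 3 by chimera, NeuroD2 or MyoD value within each class, the 3 widest, nearest and farthest from mutants, the leading windows and the extreme chromosomes. A planned search for E-box letters was not run, since no mm9 genome was used. The regions and comparisons were chosen with earlier results of these data known. Software was Python 3.11.15 with statsmodels 0.14.6, scipy 1.17.1, pandas 2.3.3, numpy 2.4.6 and matplotlib 3.10.9.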

Additional observations from a re-analysis of the deposited data

How the results depend on the processing

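Across 9 alternatives and 7 results, 46 of 63 values stayed within the interval of the value reported, or within 1.5 times for the number of regions, and 17 moved. The number of lost regions, 452, was 184 with the upper 50% of every list, 297 with every list shortened to 14375 intervals and 46 with the upper 50% of NeuroD2, chimera and MyoD against whole mutant lists; fewer intervals enter each. The percentage holding MyoD, 55.8%, was 49.2% with central 100 bases, 43.4% with lists of equal length and 45.7% with only the mutant lists whole; over all NeuroD2 and chimera regions it was 52.8%, 45.2% and 53.5% there, against 57.5%. With only the mutant lists whole, 1.22% of regions with MyoD and 1.66% without were lost, and with the upper 50% of every list 5.46% of those without were. The median chimera percentile, within the shortened lists, was 36.2 with the upper 50% of every list and 30.8 with only the mutant lists whole, where that of NeuroD2 was 32.9. The percentage with a mutant interval within 1000 bases, 15.3%, was 4.17% with intervals joined over 500 bases, which removes near gaps by construction, 24.2% with central 100 bases, 9.24% with the upper 50%, 8.75% with equal lengths and 19.6% with only the mutant lists whole. The share lost was lower with than without MyoD in the main setting and in all alternatives except the upper 50% of every list (5.92% against 5.46%) and the removal of dense windows (6.29% against 6.12%). The restriction to direct overlap of chimera and NeuroD2 intervals was chosen after seeing the data and left 449 regions; autosomes and widths of 200 bases or more left 467. No paired analysis was possible because each group has 1 list for its 2 libraries, and for the same reason no library could be left out. Unknown depth and filters limit what absence from a list shows.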
